A study of Mus musculus with 23 samples.

Results

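The comparison set the gastrocnemius muscle of 4 old mice trained by high-intensity intermittent training (HIIT) against that of 4 old mice given moderate-intensity continuous training (MICT). The members are the 8 arrays whose titles begin MO_AC and MO_XR, out of 23 arrays in the series, and no measured value entered their choice. All mice were male C57BL/6J, singly housed, and entered the old cohort at 24 months of age, with 25 months given on the sample labels. Training ran every day for 4 weeks. An HIIT session had 3 fast runs (27 m/min), each lasting 2 min, separated by recovery of 1 min at a walking 5 m/min. An MICT session was a single steady run of 45 min, at a speed of 13 m/min. The 4 old sedentary controls, given beside the trained mice, were taken to the same room and placed on a treadmill that was switched off. Muscle was taken after 12 h of rest. Of 9 mice per group in the study, 4 per group were put on arrays, and the labels do not say how these were picked. The adult groups, given at the end, were treated in the same way from 5 months of age, with 4 HIIT arrays and 3 MICT arrays analysed here.

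The gastrocnemius is a calf muscle made mainly of fast-twitch fibres that use glycogen. Short fast runs draw on that glycogen, and long runs at moderate speed draw more on fat and on oxidation in mitochondria. Muscle tissue also holds connective tissue cells, vessels, nerve and immune cells, and in whole-muscle RNA fewer cells of a type cannot be told apart from less RNA per cell. During fasting, inactivity and stress, muscle breaks down its own protein through ubiquitin ligases, the proteasome and autophagy, a programme driven by FOXO transcription factors and glucocorticoid hormones.

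Each array was a 1-colour Agilent array of 62976 spots. Values are log2 signals minus the 75th percentile of the array, so 0 stands for that percentile. Differences are HIIT minus MICT in log2 units, and each value after ± is the standard error (SE) of the limma fit unless it is called an SD. The fit took in all 23 arrays in 6 groups, and its p-values measure the spread between these samples. Its SE pools the spread of all 6 groups. For genes that varied more in the 2 old trained groups than elsewhere, SE, interval and p understate the spread of the compared arrays. The share of gene spots above background ran from 49.5% to 58.9% over the 8 trained arrays, with the highest share in old HIIT 2. Both groups lay on slide 3, HIIT in row 1 and MICT in row 2, so regimen and row cannot be told apart. The old controls lay on slide 2, so every value against controls is also a value between slides. The 10 muscle fibre markers were bright on all 12 old arrays, with a summed log2 level of 12.1 to 13.0 in HIIT and 12.6 to 13.2 in MICT.

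No feature passed the test between the regimens. Limma called 0 of 23705 features at an adjusted p under 0.05 (0%, in either direction), and the smallest adjusted p was 0.0536. At an unadjusted p under 0.05 there were 3982 features (16.8%), of which 1423 were higher in HIIT (6%) and 2559 were lower (10.8%). All 4 HIIT arrays lay above all 4 MICT arrays for 612 features (2.58%) and below them for 1007 (4.25%). The typical SD between arrays of a group, as the median over features, was 0.28 in HIIT and 0.30 in MICT.

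The 2 directions differed in brightness. Features higher in HIIT at an unadjusted p under 0.05 were dim, with a median signal of -2.34 and a median difference of 1.16. Those lower in HIIT were bright, with a median signal of 3.05 and a median difference of -0.39. The median difference over all features was -0.09, and over 4 equal bins of signal it was 0.09 in the dimmest, 0.0032 in the second, -0.11 in the third and -0.18 in the brightest bin. In the brightest bin, 24.9% of features were lower in HIIT at an unadjusted p under 0.05 and 0.793% were higher. In the dimmest and the second bin, 10.85% and 8.39% were higher at that threshold. By sign alone, 61.4% of all features were lower in HIIT. By sign 57.25% of the dimmest bin and 13.3% of the brightest bin were higher, so most bright features were lower in HIIT. After quantile normalization the 4 medians were 0.01, -0.06, -0.04 and 0.01, so the shift of bright genes depended on the scaling.

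The plot of all features by signal shows this tilt.

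**Figure D1:**
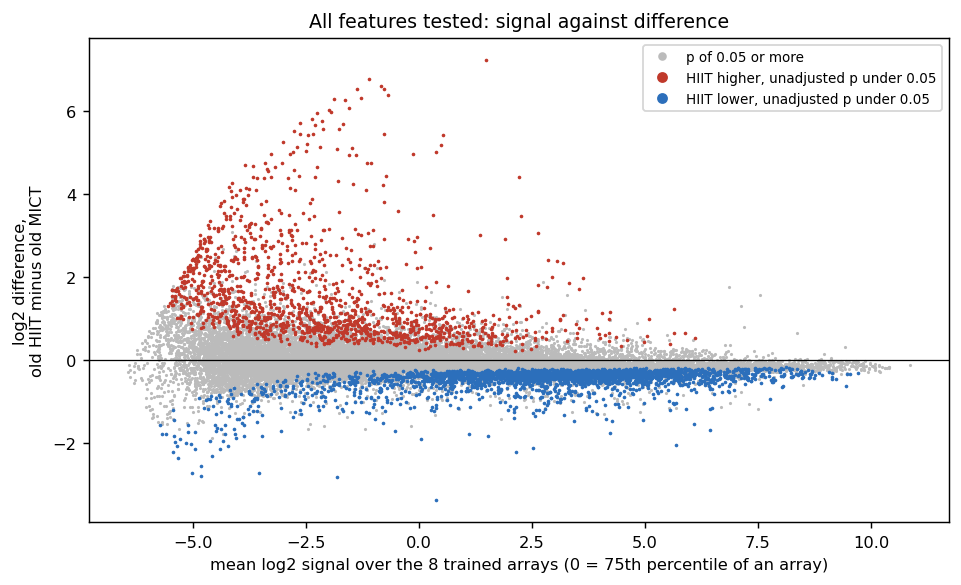
Each point is 1 of 23705 features. The x axis is its mean log2 signal over the 8 trained arrays (0 is the 75th percentile of an array), and the y axis is its log2 difference, old HIIT minus old MICT. Red and blue points have an unadjusted p under 0.05; red points (1423) have a median signal of -2.34 and blue points (2559) one of 3.05.

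The feature nearest to a call has no gene symbol. It is probe A_55_P2026258, designed to the transcript ENSMUST00000103365, and is named here because its p was the smallest. Its log2 signal was -2.00, 1.10, -3.09 and -2.98 in old HIIT 1 to 4 and -5.77, -6.08, -5.76 and -5.99 in old MICT 1 to 4. No MICT array had it well above background, so HIIT was at least 4.89-fold higher (fitted difference 4.16 ± 0.64, limma adjusted p = 0.0536). Old HIIT 2 was the highest of its group, and without it the bound was 2.54-fold and the fitted difference 3.21 (limma adjusted p = 0.0140). The old controls, at -1.24, -2.46, -1.72 and -3.65, lay with the HIIT arrays.

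Among features with a symbol, the smallest adjusted p was 0.220, shared by many genes. The 12 with the smallest p that were higher in HIIT differed by 0.79 to 4.24, and in all 12 the groups did not overlap. They include Sapcd2, a regulator of spindle orientation, the histone genes H2ac4 and H1f5, Rasgrp1, which activates Ras in lymphocytes, and Tnfrsf18, a co-stimulatory receptor of T cells. The others were Mab21l3, Zfp607a, Nsg2, Scg3, Cmtm5, Rapgefl1 and Ap1s3. H2ac4 was 1.48, 0.11, 0.12 and -0.07 in old HIIT 1 to 4 and -2.94, -2.13, -1.93 and -3.58 in old MICT 1 to 4. The difference was 3.05 ± 0.71, or 8.29-fold (limma adjusted p = 0.220). Rasgrp1 was -3.08, -0.92, -1.74 and -1.14 in HIIT and -6.01, -4.91, -3.98 and -5.29 in MICT, where 1 of 4 arrays had it well above background. Nsg2 and Sapcd2 were well above background on no MICT array and on all 4 HIIT arrays, and stood at least 2.05-fold and at least 2.61-fold higher in HIIT.

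The 12 genes with the smallest p that were lower in HIIT differed by less, from -0.53 to -1.11, and in 9 of them the groups did not overlap. They include Zfhx3, a zinc-finger homeobox transcription factor, Slc25a33, a mitochondrial carrier of pyrimidine nucleotides, Sav1, a scaffold of Hippo signalling, Fxr1, an RNA-binding protein abundant in muscle, and Hdac4, a histone deacetylase that represses muscle genes. The others were Gm5796, Cep85, Gm3383, Ccdc117, Ddx3y, Trpm7 and Bclaf1. Slc25a33 was 3.33, 2.87, 3.01 and 2.88 in old HIIT 1 to 4 and 4.21, 3.97, 3.41 and 3.46 in old MICT 1 to 4, a difference of -0.74 ± 0.16 (limma adjusted p = 0.220). Sav1 was 4.13, 4.12, 4.31 and 3.78 in HIIT and 5.30, 5.64, 4.39 and 4.55 in MICT. In both genes the MICT arrays 1 and 2 were the highest, and the controls (2.71 to 3.13 for Slc25a33, 3.69 to 4.20 for Sav1) lay with the HIIT arrays. Without old MICT 1 and 2 the differences were -0.41 for Slc25a33 and -0.39 for Sav1.

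Genes of cell division, mostly dim on these arrays, stood higher in HIIT. Of 30 tested members of the cell cycle list (of 32), 25 were higher in HIIT and 0 were called. At an unadjusted p under 0.05, 14 were higher (background 6%, and 10.85% in the dimmest bin, which holds 9 of the 30). In 14 members all HIIT arrays lay above all MICT arrays and in 0 they lay below, against 2.58% and 4.25% of all features. The median difference was 1.04, against -0.09 over all features and 0.09 in the dimmest bin. It was 0.67 over 29 members with those below background in 1 group at their bound. That value leaves out 1 member below background in both groups.

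Dividing cells replicate their DNA and then build a mitotic spindle, and most of these genes are switched on together late in the cycle through promoter elements called the CCAAT box and the cell cycle homology region. The regions of 250 bases before the start of 3 members whose arrays did not overlap show how often these elements occur. The sequences are from RefSeq (GRCm38.p6), 5′ to 3′ on the gene's strand, with capitals marking the CCAAT box (CCAAT) and the cell cycle homology region (TTTGAA) on either strand.
Ccnb1, chr13:100786487-100786736, minus strand: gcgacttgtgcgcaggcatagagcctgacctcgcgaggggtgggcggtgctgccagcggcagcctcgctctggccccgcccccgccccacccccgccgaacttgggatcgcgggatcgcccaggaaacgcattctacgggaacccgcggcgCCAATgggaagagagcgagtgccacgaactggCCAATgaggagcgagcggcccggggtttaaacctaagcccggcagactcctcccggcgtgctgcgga
Top2a, chr11:99024190-99024439, minus strand: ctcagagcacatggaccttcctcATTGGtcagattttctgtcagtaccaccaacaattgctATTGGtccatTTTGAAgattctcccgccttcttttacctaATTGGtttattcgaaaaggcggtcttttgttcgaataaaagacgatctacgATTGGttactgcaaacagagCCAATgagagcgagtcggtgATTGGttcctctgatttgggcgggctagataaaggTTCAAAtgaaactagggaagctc
Prc1, chr7:80294226-80294475, plus strand: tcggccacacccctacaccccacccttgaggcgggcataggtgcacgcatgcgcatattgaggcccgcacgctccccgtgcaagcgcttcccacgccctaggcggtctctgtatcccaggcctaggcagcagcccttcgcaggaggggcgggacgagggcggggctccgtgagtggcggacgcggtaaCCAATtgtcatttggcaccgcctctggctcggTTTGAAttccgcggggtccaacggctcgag
The window of Ccnb1 holds 2 CCAAT boxes, that of Top2a holds 6 with 2 cell cycle homology regions, and that of Prc1 holds 1 of each. Prc1 has another listed start just upstream, whose window holds 1 CCAAT box and 0 cell cycle homology regions. Over the full table windows (250 bases before to 50 after the start, any listed start, both strands), a CCAAT box lay in 85.2% of 27 list members with a window and in 41.1% of 27025 genes. A cell cycle homology region lay in 55.6% of the members and in 20.2% of all genes. The CCAAT box also lay in 76.5% of 17 core clock genes and in 59.1% of 22 glucocorticoid-induced genes. In the atrophy, proteasome and matrix lists its share was 40% to 41.9%. The elements can overlap where TTTGAA runs into ATTGG, and a match is a description of letters, not of binding. Both motifs were chosen after these genes had been seen.

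Ccnb1 encodes cyclin B1, the partner of the kinase that starts mitosis. It was -1.48, -3.09, -2.04 and -2.39 in old HIIT 1 to 4 and -5.87, -4.52, -5.10 and -6.04 in old MICT 1 to 4. All HIIT arrays were above all MICT arrays, and no MICT array had it well above background. HIIT was at least 3.44-fold higher (fitted difference 3.13 ± 0.87, limma adjusted p = 0.220). Top2a, a topoisomerase that untangles DNA before division, was -2.93, -4.46, -2.96 and -3.08 in HIIT and -5.68, -6.07, -6.41 and -5.90 in MICT, at least 1.59-fold higher in HIIT. Old HIIT 2 stood apart as the lowest of its group.

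Mki67, the gene of the Ki-67 protein found in dividing cells, was well above background on all 8 arrays. It was 0.34, -0.15, 0.74 and 0.22 in old HIIT 1 to 4 and -2.25, -1.78, -1.34 and -3.05 in old MICT 1 to 4. The groups did not overlap, and the difference was 2.39 ± 0.72, or 5.24-fold (95% interval of the log2 difference 0.89 to 3.89, limma adjusted p = 0.220). Prc1, which bundles microtubules between separating chromosomes, differed by 2.69 ± 0.70, and Cdca8, a chromosomal passenger protein, by 1.40 ± 0.42. Neither group of Prc1 or Cdca8 overlapped the other.

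The cell cycle level of the old controls, at 0.65 to 2.96 as the list's median deviation from its mean over the trained arrays, overlapped that of HIIT (0.16 to 0.96) and lay above that of MICT (-0.85 to -0.41). Mki67 was 0.76, 1.25, 0.40 and 2.93 in old controls 1 to 4. Against controls, 20 of the 30 members were called lower in MICT (limma, background 9.02% lower) and 0 in HIIT (background 0.00844% lower), with medians of -1.90 and -0.80. Both of these comparisons share the same controls, and control 4 was the highest in all 5 cell cycle genes named here.

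**Figure D2:**
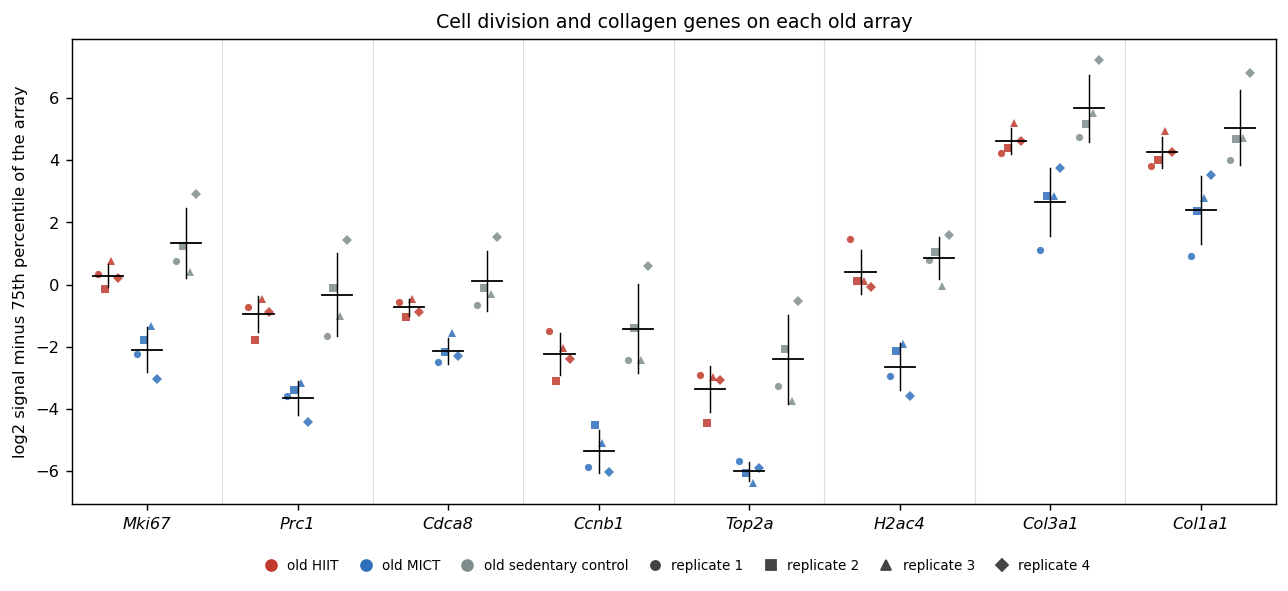
Cell division genes (Mki67, Prc1, Cdca8, Ccnb1, Top2a, H2ac4) and collagen genes (Col3a1, Col1a1) on the 12 old arrays. The y axis is log2 signal minus the 75th percentile of the array; symbols mark the replicate, black bars the group mean and SD (n = 4). In all 8 genes the 4 HIIT arrays lie above the 4 MICT arrays, and the highest control is replicate 4.

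Extracellular matrix genes, collagens among them, also leaned higher in HIIT. The extracellular matrix list holds collagens, laminins and the enzymes that fold and crosslink them. Of its 47 tested members, 35 were higher in HIIT, 0 were called, 13 were higher at an unadjusted p under 0.05 (background 6%) and 0 were lower (background 10.8%). In 10 members all HIIT arrays lay above all MICT arrays (background 2.58%). The median difference was 0.38, or 0.31 with members below background at their bound. The list level overlapped between the regimens, with -0.042 in old HIIT 1 and -0.039 in old MICT 4.

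Col3a1, a fibrillar collagen of the sheath around fibres, was 4.25, 4.39, 5.22 and 4.62 in old HIIT 1 to 4 and 1.13, 2.86, 2.86 and 3.75 in old MICT 1 to 4. The difference was 1.97 ± 0.55, or 3.93-fold (limma adjusted p = 0.220). Col1a1, the main chain of type I collagen, was 3.80, 4.00, 4.93 and 4.28 in HIIT and 0.91, 2.36, 2.79 and 3.52 in MICT, a difference of 1.86 ± 0.57. In both collagens old MICT 1 was the lowest array of the 12 and old control 4 the highest. Col1a2, the second chain of type I collagen, differed by 1.24 ± 0.39 and Lama4, a laminin chain of basement membranes, by 0.52 ± 0.16, and in these the groups overlapped. With old MICT 1 and 2 left out the differences were 1.10 for Col1a1, 0.76 for Col1a2 and 0.17 for Lama4.
Of 10 fibroblast markers, which share Col1a1, Dcn and Lum with the matrix list, 8 were higher in HIIT with a median of 0.38, the same as that of the matrix list, 3 at an unadjusted p under 0.05, and in 2 the groups did not overlap. Their summed log2 level, which the brightest markers set, was 8.73 to 9.12 in HIIT and 8.95 to 9.20 in MICT and overlapped. The part of fibroblasts in the collagen differences was not tested. Against controls, 21 matrix genes were called lower and 2 higher in MICT (background 9.02% and 21.3%), and 0 were called in HIIT.

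Transcripts of immune and skin cells varied between arrays beside these genes. All 10 tested B and plasma cell markers were higher in HIIT, with a median of 1.63 (1.09 with members below background at their bound), and 13 of 14 T and NK cell markers, with a median of 1.51 (0.35 with bounds). Limma called 0 of them, and 4 and 7 were higher at an unadjusted p under 0.05. The background was 6%, and 10.85% in the dimmest bin, which holds 6 members of each list. In 4 and 5 members all HIIT arrays lay above all MICT arrays (background 2.58%).

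Old HIIT 2 stood apart in both lists. Cd79b, a chain of the B-cell receptor complex, was -1.31, 2.58, -0.96 and -0.46 in old HIIT 1 to 4 and -2.73, -2.77, -1.54 and -1.88 in old MICT 1 to 4. Cd3g, a chain of the T-cell receptor complex, was -3.58, -0.16, -2.30 and -1.93 in HIIT and -6.04, -5.13, -4.52 and -5.38 in MICT, at least 4.11-fold higher in HIIT. Spib, a B-cell transcription factor, was at least 2.61-fold higher, and 3 of 4 HIIT arrays and no MICT array had it well above background. Without old HIIT 2 the bounds were 2.69-fold for Cd3g and 1.40-fold for Spib, and Cd79b differed by 1.32 in place of 2.19.

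The summed log2 level of the B and plasma cell markers was 1.32 to 4.51 in HIIT, 0.32 to 1.27 in MICT and 1.59 to 6.20 in old controls. Of its members, Cd79a, Fcer2a, Fcrla and Spib were well above background on no MICT array. For the T and NK cell markers the summed level was 3.39 to 5.00, 3.13 to 3.47 and 3.25 to 5.77, and Cd3g, Cd8a, Cd8b1 and Gzmb were well above background on no MICT array. Without old HIIT 2 the medians were 0.88 (B and plasma) and 0.73 (T and NK), and that of the cell cycle list was 1.15. The part of lymphocytes in the cell cycle difference was not tested.

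Keratinocyte genes, which belong to skin, had the widest differences in the comparison. All 9 tested markers were higher in HIIT, with a median of 5.00. At an unadjusted p under 0.05 there were 8 (background 6%), yet the groups overlapped in every one. Krt5, a keratin of the basal skin layer, was -0.70, 3.20, 4.67 and 5.76 in old HIIT 1 to 4, -3.77, 0.43, -2.31 and -3.07 in old MICT 1 to 4, and -1.02, 6.55, 2.62 and -0.25 in old controls 1 to 4. Lor, the gene of loricrin in the cornified layer, was 0.87, 5.71, 5.95 and 7.87 in HIIT and -5.71, 2.29, -1.58 and -3.49 in MICT. The high arrays were old HIIT 2, 3 and 4 and old controls 2 and 3, so trained and untrained mice were among them, and old MICT 2 was the highest of its group. The summed log2 level of the list was 2.31 to 8.90 in HIIT, 0.56 to 3.58 in MICT and 1.55 to 9.33 in controls.

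**Figure D3:**
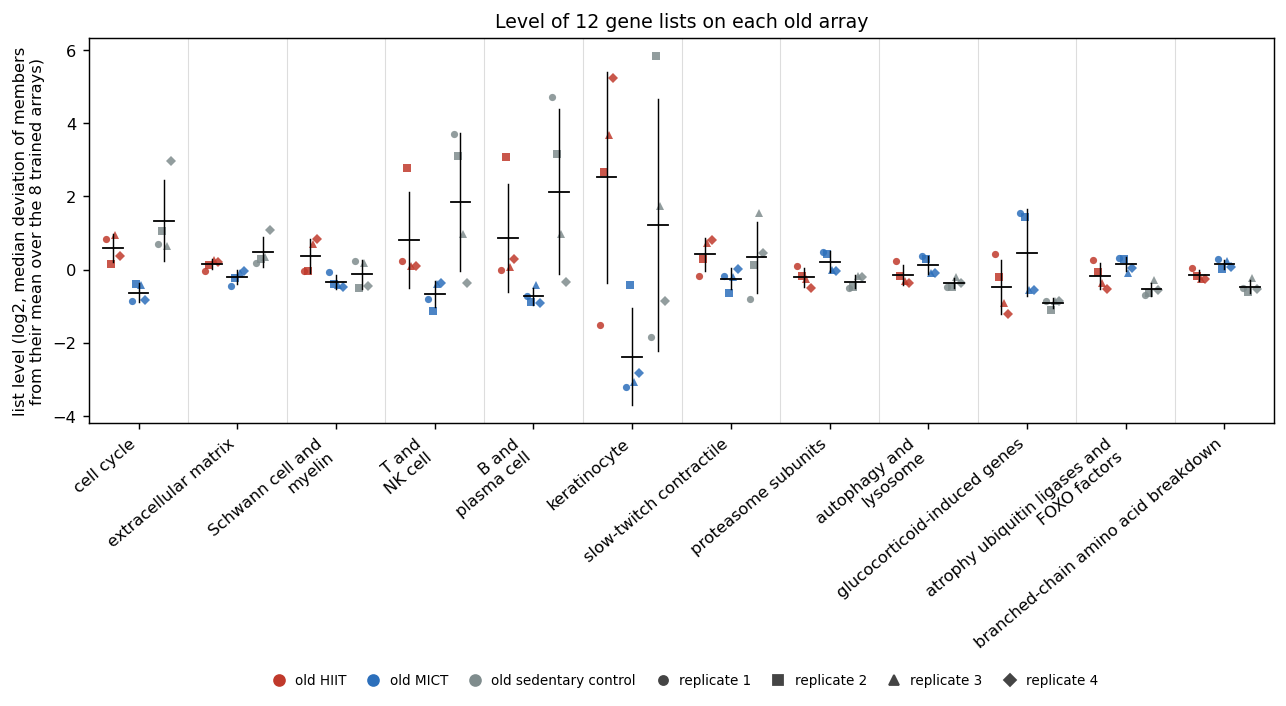
Level of 12 gene lists on each of the 12 old arrays. The y axis is the median over a list's members of their deviation, in log2 units, from their mean over the 8 trained arrays; symbols mark the replicate, black bars the group mean and SD (n = 4). HIIT and MICT arrays do not overlap for the cell cycle, B and plasma cell, T and NK cell and Schwann cell lists. For Schwann cells the gap is narrow, with a lowest HIIT array of -0.03 and a highest MICT array of -0.06. Old HIIT 2 stands apart for B and plasma cells (3.07) and for T and NK cells (2.78).

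Myelin genes stood moderately higher in HIIT. Schwann cells wrap the axons of motor nerves in myelin. All 10 tested markers were higher in HIIT with a median of 0.78, 6 had an unadjusted p under 0.05 (background 6%), and in 4 the groups did not overlap (background 2.58%). Sox10, the transcription factor of the Schwann cell lineage, was -0.07, -0.25, 0.26 and 0.75 in old HIIT 1 to 4 and -0.42, -0.96, -0.71 and -0.77 in old MICT 1 to 4, a difference of 0.89 ± 0.25 (1.85-fold, limma adjusted p = 0.220). Pmp22, a membrane protein of compact myelin, was 3.91, 4.07, 4.66 and 4.72 in HIIT and 3.58, 3.46, 3.64 and 3.53 in MICT, a difference of 0.79 ± 0.25. Mag, an adhesion protein between myelin and axon, differed by 0.94 ± 0.31. In these 3 genes old HIIT 3 and 4 were the highest arrays of the 8. The summed log2 level of the list was 6.09 to 6.90 in HIIT, 5.88 to 6.23 in MICT and 6.06 to 6.76 in controls, and whether more nerve was taken with some samples was not tested.

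Slow-twitch genes leaned higher in HIIT, with wide spread between arrays and a share at an unadjusted p under 0.05 near the background. Of 15 tested slow-twitch contractile genes, 14 were higher in HIIT, with a median of 0.77, 1 had an unadjusted p under 0.05 (background 6%), and in 1 the groups did not overlap (background 2.58%). Myh7, the slow myosin heavy chain, was 6.64, 7.69, 8.21 and 8.39 in old HIIT 1 to 4 and 6.90, 6.49, 3.38 and 7.15 in old MICT 1 to 4. Old MICT 3 was far below the rest, and the difference was 1.75 ± 0.87 (95% interval -0.05 to 3.56, limma adjusted p = 0.311), or 0.89 without that array. Tnnt1, the slow troponin T, differed by 1.30 ± 0.70 (limma adjusted p = 0.350). Myh4, the myosin of the fastest fibres, was 10.17, 9.04, 10.22 and 10.05 in HIIT and 10.16, 9.96, 9.67 and 10.44 in MICT, a difference of -0.19 ± 0.24, which turned to 0.09 without old HIIT 2. The 16 fast-twitch genes had a median of -0.18, against -0.18 in the brightest bin of features.

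Genes that glucocorticoids induce were lower in HIIT, and here both groups were split. In each group the list level was higher in arrays 1 and 2 than in arrays 3 and 4. Of 25 tested members, 23 were lower in HIIT with a median of -0.99. The brightest bin of features, which holds 20 of the 25, had a median of -0.18, with 13.3% of it higher in HIIT. Limma called 0, and 13 were lower at an unadjusted p under 0.05 (background 10.8% lower, and 24.9% in the brightest bin). In 1 member, Sgk1, all HIIT arrays lay below all MICT arrays, so the share that did not overlap was near the background of 4.25%. The list level was 1.54 and 1.43 in old MICT 1 and 2, -0.55 in both old MICT 3 and 4, 0.43, -0.21, -0.91 and -1.22 in old HIIT 1 to 4, and -1.11 to -0.85 in old controls. Without old MICT 1 and 2 the median was 0.09, with 16 members higher in HIIT. These arrays were the highest of MICT, and this setting was chosen after the data were seen. Leaving them out was bound to shrink the difference. Over all alternatives the median ran from -1.66 to 0.09.

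Sgk1 encodes a kinase switched on by serum and glucocorticoids. Of 27025 genes in the RefSeq promoter table, 3 hold the full palindromic glucocorticoid response element (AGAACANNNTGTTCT) in the window around a listed start, and Sgk1 is the only one of them in the list, at 1 of its 6 listed starts. The 250 bases before that start are shown with this element and the E-box (CACGTG) in capitals.
Sgk1, chr10:21993640-21993889, plus strand: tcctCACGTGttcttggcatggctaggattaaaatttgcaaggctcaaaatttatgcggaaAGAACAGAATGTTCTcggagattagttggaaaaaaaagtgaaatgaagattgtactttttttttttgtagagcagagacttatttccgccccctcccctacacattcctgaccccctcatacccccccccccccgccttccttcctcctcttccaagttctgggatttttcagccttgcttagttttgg
Sgk1 was 5.07, 5.12, 5.23 and 4.38 in old HIIT 1 to 4 and 6.67, 7.28, 5.36 and 5.31 in old MICT 1 to 4. The difference was -1.20 ± 0.32, or 2.30-fold (95% interval -1.88 to -0.53, limma adjusted p = 0.220). Old MICT 3 and 4 lay just above the highest HIIT array, and the controls, at 4.89 to 5.36, overlapped both groups. An E-box lay in 27.3% of 22 list members with a window against 8.09% of all genes, and a FOXO site (GTAAACA) in 13.6% against 4.05%. The cAMP response element (TGACGTCA) lay in 9.09% against 2.03%. Of 17 core clock genes, 29.4% held an E-box.

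Other members were also highest in old MICT 1 and 2. Ddit4, an inhibitor of the growth kinase complex mTORC1, was 6.12, 5.35, 3.63 and 3.58 in old HIIT 1 to 4, 8.81, 8.85, 4.00 and 5.20 in old MICT 1 to 4, and 3.38 to 3.92 in old controls. The difference was -2.04 ± 0.77 (4.12-fold, limma adjusted p = 0.222). It was 0.07 without old MICT 1 and 2 and -3.11 without old HIIT 1 and 2. This SE understates the spread of the trained mice, with an SD of 1.27 in HIIT and 2.49 in MICT against 0.28 in old controls. Klf15, a transcription factor that turns on amino acid breakdown, was 2.83, 2.28, 1.70 and 1.20 in HIIT and 4.22, 4.01, 2.42 and 2.14 in MICT, a difference of -1.19 ± 0.37. Cebpd, a stress-induced transcription factor, differed by -1.67 ± 0.75 (0.20 without old MICT 1 and 2), Errfi1, an inhibitor of the EGF receptor, by -1.46 ± 0.47, and Per1, a clock repressor that glucocorticoids also induce, by -1.12 ± 0.36. In each of them old MICT 1 and 2 were the highest of the 8 arrays. Without those arrays Klf15 differed by -0.28, Errfi1 by -0.04, Per1 by -0.26 and Sgk1 by -0.38. An exact permutation test over the 8 arrays alone gave p = 0.229 for Ddit4, 0.143 for Klf15, 0.257 for Cebpd and 0.200 for Errfi1. The same test gave 0.114 for Per1 and 0.0286 for Sgk1, the smallest p it can give.

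**Figure D4:**
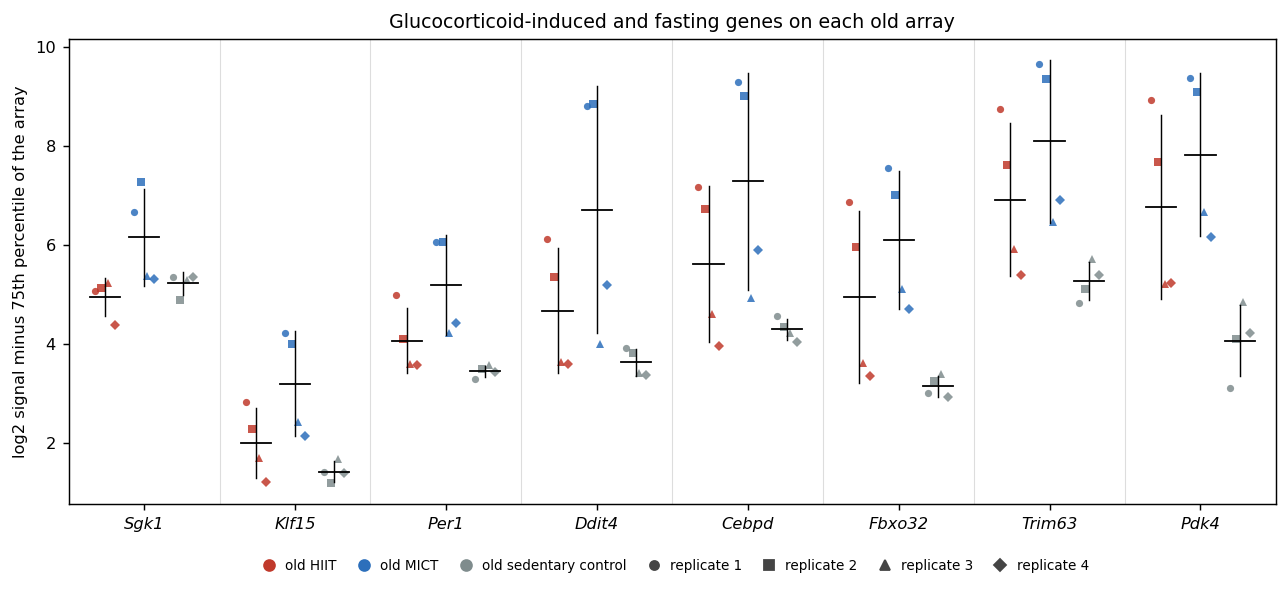
Glucocorticoid-induced genes (Sgk1, Klf15, Per1, Ddit4, Cebpd), atrophy ligases (Fbxo32, Trim63) and Pdk4 on the 12 old arrays. The y axis is log2 signal minus the 75th percentile of the array; symbols mark the replicate, black bars the group mean and SD (n = 4). Old MICT 1 and 2 are the highest arrays in every gene shown, and old HIIT 1 is the highest of its group in all but Sgk1.

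The list levels of the atrophy genes and the fasting genes were also highest in old MICT 1 and 2. Of 22 atrophy ubiquitin ligases and FOXO factors, 21 were lower in HIIT with a median of -0.42. The brightest bin of features, which holds 13 of the 22, had a median of -0.18, with 13.3% of it higher in HIIT. At an unadjusted p under 0.05, 8 were lower (background 10.8%, and 24.9% in the brightest bin) and 1 was higher (background 6%). In 2 the HIIT arrays lay below all MICT arrays (9.09%, background 4.25%). Fbxo32 encodes atrogin-1, a muscle ubiquitin ligase. It was 6.87, 5.96, 3.61 and 3.36 in old HIIT 1 to 4, 7.56, 7.01, 5.11 and 4.71 in old MICT 1 to 4, and 2.93 to 3.39 in old controls. The SD was 1.74 in HIIT and 1.40 in MICT, and the difference was -1.15 ± 0.62 (limma adjusted p = 0.354). Trim63, the ligase MuRF1, differed by -1.18 ± 0.64 and Foxo1, which activates both ligases, by -1.30 ± 0.52. Without old MICT 1 and 2 these 3 differences were 0.04, 0.23 and 0.19, and without old HIIT 1 and 2 they were -2.61, -2.44 and -1.94. Mul1, a mitochondrial ubiquitin ligase, differed by -0.49 ± 0.13 and Usp14, a deubiquitinase of the proteasome, by -0.44 ± 0.17, and in these 2 the groups did not overlap.

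Pdk4, the kinase that shuts off glucose oxidation when fat is burned, was high in all 8 trained mice relative to controls. It was 8.94, 7.67, 5.21 and 5.24 in old HIIT 1 to 4, 9.38, 9.08, 6.66 and 6.16 in old MICT 1 to 4, and 3.11, 4.10, 4.84 and 4.21 in old controls 1 to 4. The groups overlapped, and the difference was -1.06 ± 0.76 (95% interval -2.64 to 0.52, limma adjusted p = 0.485). Against controls, Pdk4 rose by 3.76 in MICT (limma adjusted p = 0.00407) and differed by 2.70 in HIIT (limma adjusted p = 0.112). Ucp3, a mitochondrial carrier that fatty acids induce, differed by -1.41 ± 0.76 between regimens and Acot2, a mitochondrial thioesterase, by -1.09 ± 0.56 (-0.07 without old MICT 1 and 2). Of 16 fasting and fatty-acid-induced genes, 11 were lower in HIIT (background 61.4%), with a list median of -0.45. At an unadjusted p under 0.05, 2 were lower, a share near the background of 10.8%. Without old MICT 1 and 2 that median was 0.19, Pdk4 differed by 0.35 and Ucp3 by 0.45. Without old HIIT 1 and 2 Pdk4 differed by -2.60 and Ucp3 by -2.39.

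Proteasome genes differed less but more evenly. The proteasome degrades proteins tagged with ubiquitin, and its core and cap are built from subunits of the Psma, Psmb, Psmc and Psmd families. All 30 tested subunits (of 31) were lower in HIIT, from -0.21 to -0.59 with a median of -0.44. The brightest bin of features, which holds 28 of them, had a median of -0.18, with 13.3% of it higher in HIIT. Limma called 0, and 27 had an unadjusted p under 0.05 (background 10.8%, and 24.9% in the brightest bin). In 2 the groups did not overlap (6.67%), a share near the background of 4.25%. Under quantile normalization all 30 were still lower in HIIT, with a median of -0.23, and without old MICT 1 and 2 the median was -0.20. The list level was 0.10, -0.17, -0.27 and -0.52 in old HIIT 1 to 4 and 0.48, 0.43, -0.01 and -0.05 in old MICT 1 to 4, so the groups overlapped through old HIIT 1.
Psmd4, the ubiquitin receptor of the cap, was 7.69, 7.34, 7.22 and 6.88 in HIIT and 8.13, 8.11, 7.53 and 7.57 in MICT, a difference of -0.55 ± 0.15 (1.47-fold, limma adjusted p = 0.220), or -0.27 without old MICT 1 and 2. Psma6, a subunit of the outer ring of the core, was 5.58, 5.34, 5.55 and 5.20 in HIIT and 6.10, 5.99, 5.74 and 5.72 in MICT, with no overlap and a difference of -0.47 ± 0.13. Psmd3, a cap subunit, differed by -0.48 ± 0.14 and Psmb4, a core subunit, by -0.42 ± 0.12. Against controls, 29 of the 30 were called higher in MICT (background 21.3% higher) and 0 in HIIT (background 0.481% higher).

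Autophagy and lysosome genes were lower in HIIT in 33 of 34 cases (background 61.4%, with 13.3% of the brightest bin higher), with a median of -0.33. Of these, 15 had an unadjusted p under 0.05 (background 10.8%, and 24.9% in the brightest bin, which holds 21 of the 34), and in 3 the groups did not overlap (8.82%, background 4.25%). Atg12, which helps to load the autophagosome membrane, was 3.38, 3.49, 3.50 and 2.98 in old HIIT 1 to 4 and 3.94, 4.07, 3.57 and 3.59 in old MICT 1 to 4, a difference of -0.45 ± 0.13. Gaa, the lysosomal enzyme that degrades glycogen, was 7.39, 7.23, 6.95 and 6.83 in HIIT and 7.77, 7.71, 7.40 and 7.55 in MICT, a difference of -0.51 ± 0.15. Vcp, an ATPase that pulls ubiquitin-tagged proteins out of complexes, differed by -0.47 ± 0.15, and Gabarapl2, an Atg8-family protein of the autophagosome, by -0.29 ± 0.10. The median was -0.24 under quantile normalization, with 6 members higher in HIIT, and -0.13 without old MICT 1 and 2, with 9 higher.

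Enzymes that break down branched-chain amino acids kept their direction without old MICT 1 and 2. All 19 were lower in HIIT with a median of -0.28. The brightest bin of features, which holds 14 of the 19, had a median of -0.18, with 13.3% of it higher in HIIT. At an unadjusted p under 0.05 there were 7 (background 10.8%, and 24.9% in the brightest bin). In 5 the HIIT arrays lay below all MICT arrays (26.3%, background 4.25%). Acadsb, a dehydrogenase of the isoleucine route, was 3.14, 2.91, 3.13 and 2.93 in old HIIT 1 to 4 and 3.82, 3.43, 3.52 and 3.44 in old MICT 1 to 4, a difference of -0.53 ± 0.14 (limma adjusted p = 0.220). Aldh6a1, a dehydrogenase of the valine route, was 5.51, 5.56, 5.29 and 5.30 in HIIT and 6.08, 5.85, 5.89 and 5.71 in MICT, a difference of -0.47 ± 0.13. Mccc2 and Pcca, carboxylase subunits of the leucine and propionate routes, differed by -0.36 ± 0.12 and -0.44 ± 0.16. Without old MICT 1 and 2 the list median was -0.23, with all 19 lower, and it was -0.14 under quantile normalization, where 4 members were higher in HIIT. The controls of Acadsb (2.65 to 3.02) and Aldh6a1 (4.99 to 5.38) overlapped the HIIT arrays or lay below them, and 15 of the 19 enzymes were called higher in MICT than in controls (background 21.3%) and 0 in HIIT (background 0.481%).

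**Figure D5:**
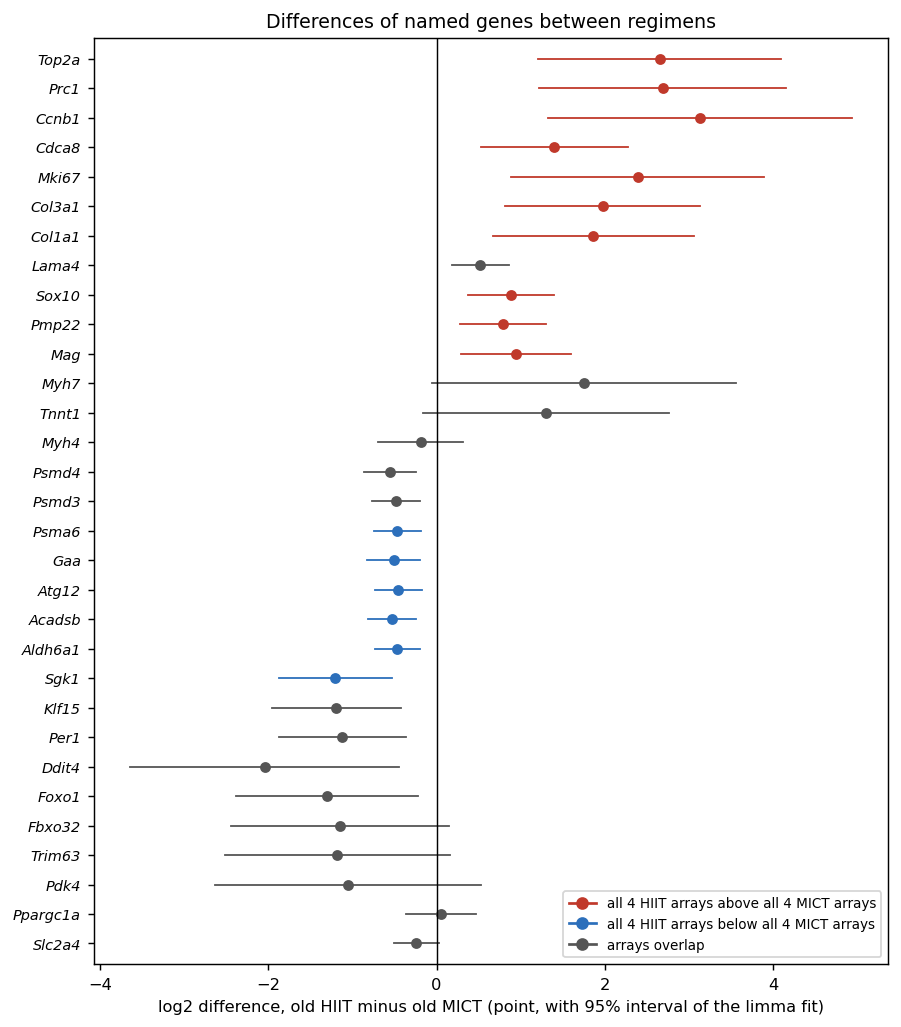
Log2 difference, old HIIT minus old MICT, for named genes with the 95% interval of the limma fit (x axis). Red marks genes whose 4 HIIT arrays all lie above the 4 MICT arrays and blue genes whose HIIT arrays all lie below; no gene passed an adjusted p of 0.05. The interval of Ccnb1 runs from 1.32 to 4.94, that of Ddit4 from -3.65 to -0.44 and that of Aldh6a1 from -0.74 to -0.19. The intervals pool the spread of all 6 groups and are too narrow for genes such as Ddit4, which varied most in the old trained mice.

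Mitochondrial energy genes showed no difference beyond that of bright genes in general. The median was -0.15 over 71 respiratory chain and ATP synthase genes, -0.17 over 23 genes of the TCA cycle and pyruvate dehydrogenase and -0.14 over 31 fatty acid uptake and oxidation genes, with 0 members of any of them at an unadjusted p under 0.05. Under quantile normalization these medians were 0.03, -0.01 and 0.03, so the first and the last changed sign with the scaling. That of the TCA cycle was near 0 there, at -0.0063, with 11 of its 23 members higher in HIIT. Ppargc1a, the master regulator of mitochondrial biogenesis, was 2.93, 3.08, 3.11 and 2.92 in old HIIT 1 to 4 and 2.48, 2.51, 3.50 and 3.34 in old MICT 1 to 4. The difference was 0.05 ± 0.20 (95% interval -0.36 to 0.46), with old MICT 1 and 2 below and old MICT 3 and 4 above all HIIT arrays, and its sign changed under several settings. Slc2a4, the insulin-responsive glucose transporter, differed by -0.24 ± 0.13 (95% interval -0.51 to 0.03) and Igf1, a growth factor made in muscle, by -0.48 ± 0.35 (0.36 without old MICT 1 and 2).

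The clock genes leaned lower in HIIT without separating the groups. Of 21 core circadian clock genes, 17 were lower in HIIT (background 61.4%) with a median of -0.33. At an unadjusted p under 0.05, 9 were lower (background 10.8%, and 24.9% in the brightest bin, which holds 11 of the 21). In 0 did the groups separate (background 6.83% in either direction). Cry2, a clock repressor, was 5.94, 4.89, 4.82 and 4.50 in old HIIT 1 to 4 and 6.84, 6.89, 5.01 and 5.31 in old MICT 1 to 4, a difference of -0.97 ± 0.34. Rora, an activator of the clock gene Bmal1, differed by -0.65 ± 0.22. These 2 differences without old MICT 1 and 2 were -0.12 and -0.25. Early response and amino acid stress genes held only single genes whose arrays did not overlap. Of 26 early response genes, 1 lay above and 1 below (3.85% each, background 2.58% and 4.25%). Of 27 amino acid stress genes it was also 1 each way (3.70% each). These shares were near the background, so they do not set either list apart from all features. Egr2, an early response transcription factor, was -0.87, -0.07, 0.42 and 0.71 in HIIT and -1.19, -1.39, -0.99 and -1.61 in MICT, a difference of 1.34 ± 0.44. Atf3, a stress-response transcription factor, went the other way, at 0.27, -0.03, 0.25 and 0.05 in HIIT and 0.90, 1.58, 1.25 and 1.16 in MICT, a difference of -1.09 ± 0.40. The groups did not overlap in Egr2 and Atf3, and the limma adjusted p was 0.220 and 0.221.

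Btg2, which slows cell proliferation, differed by -1.83 ± 0.54, with 3.55 and 4.12 in old MICT 1 and 2 against 0.39 to 0.84 in HIIT. Nars, which charges tRNA with asparagine, differed by -0.52 ± 0.16 with no overlap, and Phgdh, which starts the making of serine, by 1.02 ± 0.37. Chac1, which degrades glutathione, was 6.93, 5.86, 4.75 and 3.71 in HIIT and 8.09, 8.02, 6.30 and 5.01 in MICT, a difference of -1.54 ± 0.71 (limma adjusted p = 0.279). Mstn, the gene of the growth inhibitor myostatin, was 3.03, 3.52, 3.60 and 2.70 in HIIT and 5.34, 4.83, 3.23 and 3.85 in MICT, a difference of -1.10 ± 0.44 (limma adjusted p = 0.236). The differences without old MICT 1 and 2 were -0.44 for Btg2, -0.34 for Chac1 and -0.33 for Mstn. Bag3, a co-chaperone that clears damaged muscle proteins, differed by -0.54 ± 0.19 and Hspa4, a heat shock protein, by -0.55 ± 0.20, and without the same arrays by -0.25 and -0.16.

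The other 29 lists had medians between -0.29 (immediate early genes) and 0.80 (bone and osteoclast markers), with 0 members called in any. None of the 47 lists held a called member.

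Whether the difference between regimens itself differed by age was tested as an interaction, in which limma called 0 of 23705 features (0%), with a smallest adjusted p of 0.267 and 1962 features below 0.05 before adjustment. In adult mice HIIT against MICT also gave 0 calls (0%), with a smallest adjusted p of 0.224 and 1835 features below 0.05 before adjustment, and there the groups lay on different slides. In adult mice the HIIT minus MICT difference was 2.01 ± 0.78 for Mki67, 1.21 ± 0.60 for Col3a1, 0.11 ± 0.40 for Klf15, 0.21 ± 0.83 for Ddit4 and -0.14 ± 0.16 for Psmd4. The old values of these genes were 2.39, 1.97, -1.19, -2.04 and -0.55. List medians in adult mice were 0.70 for the cell cycle, 0.45 for the matrix, -0.01 for the glucocorticoid-induced genes and -0.08 for the proteasome. No feature was called for a difference between the ages, so the gaps between these values were not shown to differ beyond their error.

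Against the old controls, limma called 116 features in HIIT (0.489%), 114 higher and 2 lower, and 7196 in MICT (30.4%), 5057 higher and 2139 lower. Quantile normalization moved the second split to 3034 higher and 2388 lower. Without old control 3 the HIIT count was 882, without old HIIT 1 it was 11, and with normexp background correction it was 0 (smallest adjusted p 0.265, with 2726 features at an unadjusted p under 0.05). The unequal counts do not show that the regimens differ, since the direct test between them called 0 features.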

How the data were processed

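RNA of gastrocnemius muscle (200 ng) was hybridised to 1-colour Agilent arrays, 1 array per sample. The deposited per-array files hold processed signal intensity, background-corrected by Agilent Feature Extraction per the file headers. The deposited value table of the series holds a score rounded to 1 decimal that correlated with the log10 intensity of its array (r of at least 0.9995) and served as an alternative only. The number of arrays limits the precision.

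Control spots and outlier-flagged spots were left out, spots of a probe were averaged, and log2 intensity was set relative to the 75th percentile of each array. Of 29574 probes with a RefSeq accession, 28123 were given a current symbol. Features well above background on at least 3 of 23 arrays were kept, with the brightest probe per gene. Limma 3.58.1 (R 4.3.3) fitted 6 group means with an intensity trend, and Benjamini-Hochberg adjustment ran over 23705 features; the threshold was an adjusted p of 0.05. The scripts were tested on simulated data. A probe well above background on no array of a group is given as a bound, at least N-fold, against the lowest signal well above background. A list level is the median over members of their deviation from their mean over the 8 trained arrays, and a summed level is the log2 of summed signals. Named genes are the 12 with the smallest p in each direction and up to 4 members with the smallest p of each list, plus genes fixed by name; 1 list member that the rule names is not reported here. Members and lists were chosen with earlier results of these data known. Alternatives were other scalings, background correction, filters, fits and left-out arrays. Adult MICT 2 was not analysed here.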

Additional observations from a re-analysis of the deposited data

Results flagged for a closer look

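In 268 groups of 4 arrays checked for 1 array far from the other 3, 15 held such an array (gap over range above Dixon's critical value at 95%), and chance gives about 1 in 20.

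Among genes, the arrays that stood apart were old HIIT 1 for H2ac4 (1.48) and Gabarapl2 (5.38), old HIIT 2 for Top2a (-4.46) and Myh4 (9.04), old MICT 2 for Krt15 (-0.91), old MICT 3 for Myh7b (-1.23) and Tnnc1 (-0.52), and old MICT 4 for Spib (-4.63). All of these are log2 signals relative to the 75th percentile. For Gabarapl2, a protein of the autophagosome membrane, old HIIT 1 is the array that made the groups overlap.

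Among list levels, old HIIT 2 stood apart for B and plasma cell markers (3.07) and T and NK cell markers (2.78), and old HIIT 1 for adipocyte markers (-1.57). Old MICT 1 stood apart for lipid and sterol synthesis (-0.42) and hepatocyte markers (-1.01), and old MICT 2 for adipocyte (0.89) and keratinocyte markers (-0.41).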

How the results depend on the processing

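The count of features called between old HIIT and old MICT was 0 in the main fit and 1 under quantile normalization, with the deposited value table and with a replicate block. It ran from 0 to 2 with 1 array left out: 2 without HIIT 2, 1 without HIIT 3, HIIT 4 or MICT 4. It was 15 (2 higher, 13 lower) without HIIT 1 and 2 and 0 without MICT 1 and 2, both alternatives chosen after seeing the data. The replicate block called H2ac23 (2.01); same-numbered arrays correlated at 0.34, -0.03, 0.09 and 0.19, so the numbers do not pair the samples. The age interaction ran from 0 to 1 call with 1 array left out. The adult comparison called 0 under the settings run.

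Old HIIT against controls gave 64 calls under quantile normalization, 48 under median scaling, 0 with normexp, and 11 to 882 with 1 array left out. Old MICT against controls gave 4026 with normexp and 3689 to 8737 with 1 array left out. These alternatives were chosen after seeing the data.

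For the lists described at length, 10 medians moved beyond 1 SD, and the cause was not tested. Quantile normalization gave 0.031 for the respiratory chain, -0.0063 for the TCA cycle and -0.14 for branched-chain amino acid breakdown. Normexp gave 0.43 for the cell cycle and 0.36 for T and NK cells, and probes well above background on all 8 arrays gave 0.56 and 0.53. Leaving out MICT 1 and 2 gave -0.12 for atrophy genes and 0.086 for glucocorticoid-induced genes, and leaving out HIIT 1 and 2 gave 1.14 for Schwann cells. In the other lists 20 medians moved, in 9 lists, and 8 of them changed sign.

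Of 87 named features, 77 kept their sign under every alternative run. Settings that change only the error of the fit, such as robust moderation, cannot change a sign. Without MICT 1 and 2, signs reversed for Ddit4 (0.074), Cebpd (0.20), Foxo1 (0.19), Fbxo32 (0.041), Trim63 (0.23), Ucp3 (0.45), Pdk4 (0.35), Igf1 (0.36) and Ppargc1a (-0.41). With 1 array left out Myh4 ran from -0.32 (without MICT 3) to 0.090 (without HIIT 2), and it also reversed without HIIT 1 and 2 (0.078). Ppargc1a also reversed under median scaling (-0.035), array weights (-0.059) and without MICT 1 (-0.11) or MICT 2 (-0.10). Signal over background limits the dim genes. In the cell cycle, B and plasma cell and T and NK cell lists, 4 members each have only a bound, not a measured difference. A further 1 cell cycle member was well above background on no array of either regimen.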

Other observations

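Bone and osteoclast markers, which would come from tissue beside the muscle, were higher in HIIT in 7 of 7 tested cases. The median difference was 0.80 (0.55 with members below background at their bound), and 1 had an unadjusted p under 0.05 (background 6%). Their summed log2 level was 3.76 to 4.99 in HIIT, 3.07 to 4.09 in MICT and 4.31 to 6.18 in old controls, and Bglap2 and Ibsp were well above background on no MICT array.

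Lipid and sterol synthesis genes were higher in HIIT in 18 of 22 cases, with a median of 0.33 and 0 called. At an unadjusted p under 0.05, 3 were higher and 1 was lower (background 6% and 10.8%). Neutrophil markers varied most in the controls and in HIIT: the list level was 2.89 in old HIIT 1, 4.24 in old control 4 and -1.85 in old MICT 4, and the median difference between regimens was 0.20. Interferon and antigen presentation genes reached 1.20 in old MICT 3 and -0.95 in old MICT 2, with a median difference between regimens of 0.07.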
